A study of Mus musculus with 10 samples.

Results

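The genes described here are 6 transcription factor genes of the myeloid lineage: Spi1, Irf8, Egr1, Gfi1, Runx1 and Klf4. Their regions were all those of the deposited counts that lay in, or within 50 kb of, the gene span. There were 118 such regions among 151133: 15 for Spi1, 11 for Irf8, 14 for Egr1, 16 for Gfi1, 38 for Runx1 and 24 for Klf4. No region belonged to 2 of the genes.

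The samples were RN2 cells, a C57BL/6 mouse leukaemia line that carries MLL-AF9 and NRASG12D, and all of them had received a retrovirus for murine IKZF2 and RFP and had been sorted and cultured for 2 weeks. CUT&RUN, in which micrococcal nuclease is brought by an antibody to chromatin and releases the DNA around the bound protein, was done with an anti-IKZF2 antibody in 6 samples (3 libraries with 2 technical replicates each) and with a control rabbit antibody in 4. The control samples were not analysed here, so no value below has a background subtracted, and binding by the endogenous protein and by the retroviral protein cannot be told apart. The assay measures no expression, so the labelled cell type was not checked against markers.

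IKZF2 (Helios) is a zinc-finger protein of the Ikaros family, whose members bind DNA and can recruit chromatin remodelling complexes. The genes described here encode factors that steer blood progenitors along the myeloid lineage. PU.1, the product of Spi1, is needed for macrophages, granulocytes and lymphocytes and acts according to its dose. IRF8 pairs with PU.1 and favours monocytes and dendritic cells over granulocytes, EGR1 and KLF4 act in monocyte and macrophage differentiation, GFI1 is a repressor that favours granulocytes, and RUNX1 is the DNA-binding part of core binding factor. The series title places the study on self-renewal and the myeloid differentiation program, and the question here is where in these loci, and how reproducibly, signal of the anti-IKZF2 antibody lay.

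Depth was low. Library totals in regions were 1675237, 1570251 and 2081455 reads, of which the 118 regions held 1279, 1362 and 1783. The median region of these genes held 9.5, 10 and 14 reads in libraries 1, 2 and 3, and the highest held 43, 51 and 48. Technical replicate 1 was shallow, with no read in 56, 43 and 37 of the 118 regions, against 2, 2 and 1 in technical replicate 2. In technical replicate 1 these were 47.5%, 36.4% and 31.4% of the 118, against 37.5%, 41.4% and 34.5% of all regions. Technical replicates were summed. Levels are given as CPM per kb, where CPM divides a region's reads by all reads that the library had in regions and the width then divides the CPM, with mean ± SD over the 3 libraries. The labels do not say whether each library had its own culture. The SDs, and the p-values of ratios over the 3 libraries, therefore measure only the spread between these libraries, which may be technical.

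As a group the regions did not stand above the rest of the genome. By mean level over the 3 libraries, the top 10% of all regions began at 64.0 CPM per kb. Of the 118, 10 (8.47%) reached it, against 10% of all regions by construction. Their median level was 51.4 CPM per kb, against 49.5 over all regions. The 10 regions lay at Runx1 (3), Spi1, Egr1 and Klf4 (2 each) and Gfi1 (1), and Irf8 had none. When each library was ranked by itself, the top 10% began at 88.8, 91.0 and 84.5 CPM per kb in libraries 1, 2 and 3. By these bounds 0 of the 118 reached the top 10% 3 times, as 0.645% of all regions did. In 2 libraries or more, 3 reached it (2.28% of all regions). The count of 10 by mean level rose when any library was left out. It was 20 of 118 without library 1, 14 without library 2 and 13 without library 3.

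**Figure D1:**
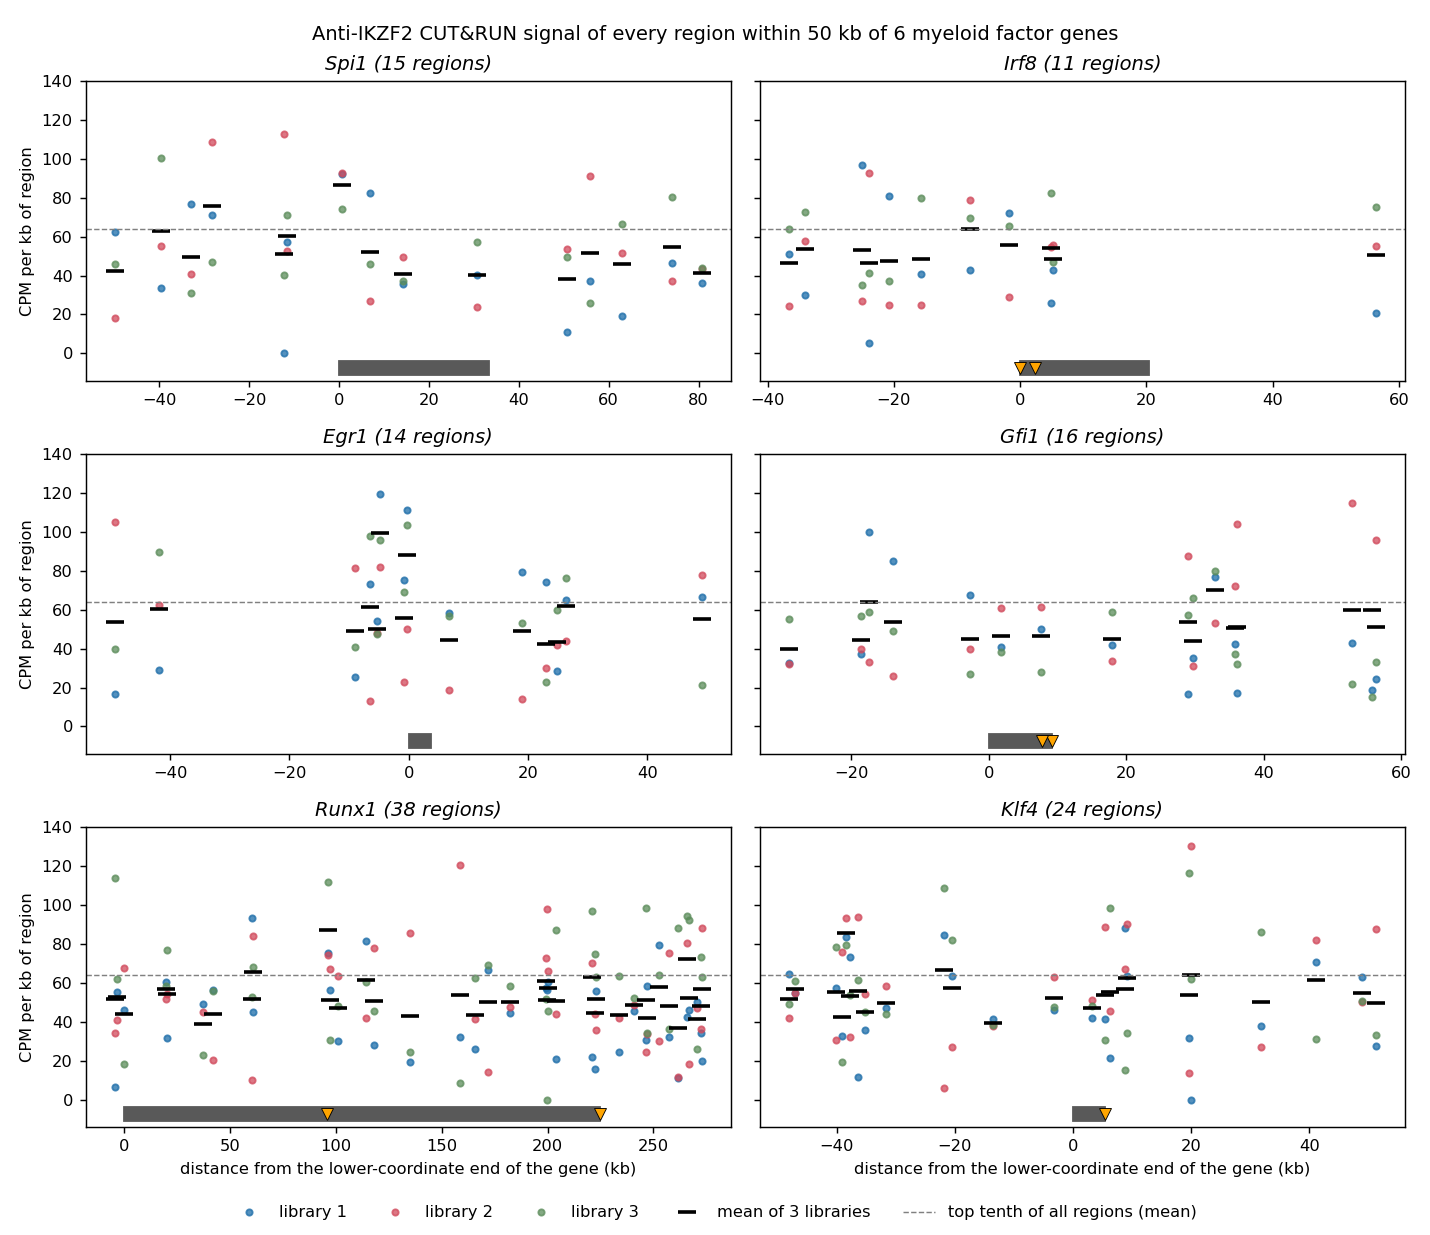
Level of each of the 118 regions (CPM per kb, y axis) against the distance of its middle from the lower-coordinate end of its gene in kb (x axis). Coloured points are the 3 libraries, black bars their mean, the grey box the gene span and orange triangles the starts in the promoter table (none for Spi1 and Egr1). The dashed line is the lower bound of the top 10% by mean level, 64.0 CPM per kb. The points of 1 region often lie far apart. A Gfi1 point of 145.9 in library 2 lies above the drawn range.

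The promoter table held 7 starts for 4 of the genes (Klf4, Gfi1, Irf8 and Runx1). At 2 of these starts a region covered part of the 250 bases before the start, and both stretches are shown so that the bases of the region can be read beside its counts. A Gfi1 region overlapped only the bases after its second start and is not shown. They run 5′ to 3′ on the minus strand, from RefSeq on GRCm38.p6, and capitals mark the bases inside the region, with an uncertainty of 1 base at its edges.
Runx1 proximal start, chr16:92697330-92697579: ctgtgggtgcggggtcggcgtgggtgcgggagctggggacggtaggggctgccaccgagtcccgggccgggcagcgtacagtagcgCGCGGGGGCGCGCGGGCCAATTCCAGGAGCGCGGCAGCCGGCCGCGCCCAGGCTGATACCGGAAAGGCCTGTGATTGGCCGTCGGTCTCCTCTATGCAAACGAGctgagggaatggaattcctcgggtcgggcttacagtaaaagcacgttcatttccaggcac
Klf4 start, chr4:55532476-55532725: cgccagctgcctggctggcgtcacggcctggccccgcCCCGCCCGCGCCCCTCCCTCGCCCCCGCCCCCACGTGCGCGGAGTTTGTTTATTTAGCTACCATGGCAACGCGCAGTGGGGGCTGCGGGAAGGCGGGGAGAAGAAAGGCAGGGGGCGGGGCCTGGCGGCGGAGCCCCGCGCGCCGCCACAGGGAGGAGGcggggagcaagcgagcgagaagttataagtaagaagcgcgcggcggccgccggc
The region covered bases 164 to 61 before the proximal start of Runx1 and bases 213 to 55 before the start of Klf4. G and C made up 67.6% and 74% of the 250 bases.

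The motifs searched, on both strands of the 250 bases before and the 50 after each start, were TGGGAA for the Ikaros family core, GAGGAAGT for PU.1, GCGTGGGCG for EGR, TGTGGT for RUNX and GGGTGTGG for KLF, of which the last can overlap the RUNX letters. TGGGAA was found in 2 of the 7 promoters, both of Irf8, against 25.6% of all 32851 promoters. TGTGGT was found in 1, the distal Runx1 promoter, against 16.8%. The letters for PU.1, EGR and KLF were in 0 of 7, against 3.20%, 0.612% and 3.56% of all. None of the 5 motifs was in the printed Runx1 and Klf4 sequences. A match is a description of letters only.

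Spi1 carried one of the more even regions of the set, near an end of its span. On chromosome 2 at 91083016 to 91083126, 642 bp inside the lower-coordinate end, 17, 16 and 17 reads were counted in libraries 1, 2 and 3 (15, 15 and 11 of them in technical replicate 2). The levels were 92.3, 92.6 and 74.2 CPM per kb, with a mean of 86.4 ± 10.5 (SD, n = 3), at percentile 97.8 of all regions. All 3 libraries were above 64.0, and within single libraries it was in the top 10% in 2 of the 3. The RefSeq span of Spi1 covers all its transcripts, a predicted one included, so an end of the span need not be its main start. The position of the main start was not used here, so its known upstream regulatory element was not placed among the regions. Whether the region above lies near that start or at that element was not determined.

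The remaining 3 regions inside the Spi1 span stood at 51.9 ± 28.2, 40.7 ± 7.60 and 40.4 ± 16.8 CPM per kb, the first near the level of all regions and the others below their median of 49.5. The other Spi1 region in the top 10% belonged by position to a neighbour. It overlapped an end of Psmc3, a proteasome ATPase gene, on chromosome 2 at 91053895 to 91054171, with 33, 47 and 27 reads and 75.6 ± 30.9 CPM per kb. Another wide region, of 229 bp, lay 198 bp from an end of the zinc transporter gene Slc39a13 with 22, 19 and 34 reads and 60.5 ± 9.64 CPM per kb. Of the 15 Spi1 regions, 4 lay at an end of another gene, and they held 62, 99 and 75 of the 176, 205 and 258 reads counted around Spi1. The highest distal region, 39497 bp from the lower-coordinate end and 2852 bp from an end of Rapsn, held 11, 17 and 41 reads at 63.1 ± 34.2 CPM per kb, most of them in library 3.

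Irf8 had no region within 1 kb of either end. The nearest lay 1628 bp before its start, with 16, 6 and 18 reads and 55.6 ± 23.3 CPM per kb. Its highest region lay 7867 bp before the start, on chromosome 8 at 120728394 to 120728491, with 7, 12 and 14 reads. The levels there were 43.1, 78.8 and 69.3 CPM per kb (63.7 ± 18.5), just under the bound of the top 10%. Inside the gene, regions of 93 and 194 bp lay 2538 and 2808 bp after the second start, at 54.4 ± 28.5 and 48.6 ± 6.51 CPM per kb. From 5.28 to 56.3 kb after the start, a stretch of 51.0 kb that includes most of the gene, no region was listed.

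The downstream enhancers of Irf8, which drive its expression in monocytes and dendritic cells, were looked for 30 to 34 kb and 54 to 58 kb after the start. The nearer window held 0 regions. The farther one held a single region of 115 bp on chromosome 8 at 120792633 to 120792748, starting 56275 bp after the start. It had 4, 10 and 18 reads, with 0, 5 and 0 of them in technical replicate 1, and levels of 20.8, 55.4 and 75.2 CPM per kb. Its mean of 50.4 ± 27.6 lay near the median of all regions, and library 3 had over 3 times the level of library 1.

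Runx1 is transcribed from a distal and a proximal start, and its highest region lay at the proximal one. On chromosome 16 at 92697390 to 92697493, in the sequence printed above, it held 13, 12 and 24 reads (2, 2 and 0 in technical replicate 1). The levels were 75.3, 74.2 and 111.9 CPM per kb, with a mean of 87.2 ± 21.5 at percentile 97.8, and library 3 stood above libraries 1 and 2. By the bounds within single libraries the region was in the top 10% in library 3 alone. In contrast, no region overlapped the 300 bases at the distal start, and the nearest inside the gene lay 1795 bp from it at 51.6 ± 14.1 CPM per kb. The only region within 1 kb of an end of the Runx1 span was at its lower-coordinate end, on the minus strand the far end of the gene, with 8, 11 and 4 reads and 43.9 ± 24.5 CPM per kb.

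An intronic enhancer of Runx1 that is active in blood stem cells was looked for 22 to 26 kb after the distal start. This window held 3 regions, 2 of them wide. The widest of all 118 regions, 446 bp on chromosome 16 at 92800654 to 92801100, held 43, 51 and 48 reads, of which technical replicate 1 gave 4, 6 and 10. Its neighbour of 327 bp at 92801625 to 92801952 held 33, 34 and 31 reads, whereas the last, of 117 bp, held 11, 18 and 0. By reads alone the wide pair were steady between libraries and at percentiles 99.7 and 98.8 of all regions. Per kb they stood at 60.7 ± 10.9 and 57.3 ± 10.6 CPM, under the bound of the top 10%.

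Summed over the window, the Runx1 element held 87, 103 and 79 reads and 58.4, 73.7 and 42.6 CPM per kb (58.2 ± 15.5), against 46.6, 53.9 and 56.0 (52.2 ± 4.93) over the other 20 regions of the gene body. The window was higher in libraries 1 and 2 and lower in library 3, and the ranges overlap. It held 18.7% of the reads of the Runx1 regions in 17.4% of their width.

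Other Runx1 regions in the top 10% were less even. One lay 41368 bp before the distal start, with 9, 16 and 25 reads and 72.4 ± 27.0 CPM per kb. The other lay in the gene body, 35196 bp after the proximal start, with 8, 14 and 15 reads and 65.7 ± 19.6 CPM per kb.

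Gfi1 had no region within 1 kb of an end of its span, but 1 lay 24 bp after its second start, on chromosome 5 at 107724164 to 107724319. It held 13, 15 and 9 reads and stood at 46.5 ± 17.1 CPM per kb, below the median of all regions, and the other gene-body region was like it at 46.6 ± 12.2. The highest Gfi1 region lay 23718 bp before the first start, at 107749523 to 107749655 and 4728 bp from an end of Evi5. It held 17, 11 and 22 reads, at 76.9, 53.1 and 80.1 CPM per kb (70.0 ± 14.8). The upstream Gfi1 enhancer was looked for 33 to 37 kb before the first start, where 0 regions were listed. A region 17399 bp beyond the other end of Gfi1 stood at 64.0 ± 33.9 CPM per kb, just under the bound, and took 26 of its 53 reads from library 1.

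Egr1, an immediate early gene, had the highest level of the 118 regions. It lay 4734 bp from the lower-coordinate end of the gene on chromosome 18 at 34856318 to 34856473, with 31, 20 and 31 reads (3, 0 and 8 in technical replicate 1). The levels were 119.4, 82.2 and 96.1 CPM per kb, with a mean of 99.2 ± 18.8 at percentile 98.7 of all regions. All 3 libraries were above 64.0, and 8855 bp separated the region from the nearest end of another gene, Reep2. No region lay inside the Egr1 span, and 2 lay within 1 kb of its lower-coordinate end. The one 293 bp away held 19, 8 and 22 reads at 88.3 ± 33.4 CPM per kb, and the one 767 bp away held 14, 4 and 16 reads at 55.8 ± 28.6. Library 2 was the lowest at each of these 3 regions.

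Regions were dense around Klf4. Its 24 regions amounted to 22.8 per 100 kb of gene span and flanks, above 99.2% of protein-coding genes, whose median was 8.14. The other genes stood at 14.7 (Gfi1), 13.5 (Egr1), 11.7 (Runx1), 11.2 (Spi1) and 9.14 (Irf8). At the Klf4 start, the region in the printed sequence held 11, 22 and 10 reads, with 0, 0 and 2 of them in technical replicate 1, and stood at 53.5 ± 30.9 CPM per kb. A second, 942 bp before the start, held 4, 8 and 23 reads at 55.2 ± 39.6. The only region inside the gene, of 100 bp, held 7, 8 and 10 reads at 46.9 ± 4.68.

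The evenest of the high regions lay 38356 bp beyond the far end of Klf4, on chromosome 4 at 55488624 to 55488781. It held 22, 23 and 26 reads, of which technical replicate 1 gave 6, 9 and 2, at 83.6, 93.3 and 79.6 CPM per kb (85.5 ± 7.05). By the bounds within single libraries it was in the top 10% in library 2 alone. By contrast, the other Klf4 region in the top 10%, 27086 bp from the start on the same side, held 15, 1 and 24 reads at 84.5, 6.0 and 108.8 CPM per kb. Its mean was 66.4 ± 53.7, and library 2 lay far below the others.

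**Figure D2:**
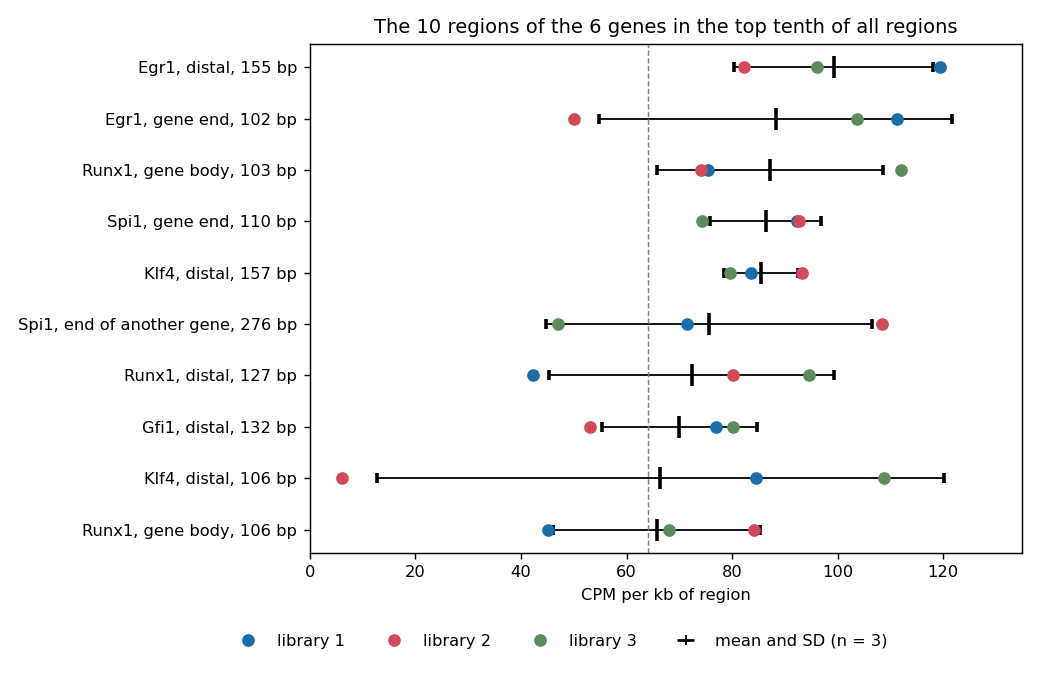
Level in CPM per kb (x axis) of the 10 regions in the top 10% of all regions, named by gene, position class and width. Coloured points are the 3 libraries, black bars the mean with SD (n = 3) and the dashed line 64.0 CPM per kb, the bound for the mean. In 4 of the 10 regions, at Egr1, Runx1, Spi1 and Klf4, all 3 libraries lie right of the line. The bounds within libraries 1, 2 and 3 are higher, at 88.8, 91.0 and 84.5. No region passed its bound in all 3 libraries.

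Gene ends were then set against all other regions of the same windows. A position within 1 kb of a gene end was held by 6 regions: 1 at Spi1, 2 at Egr1, 1 at Runx1 and 2 at Klf4. Of these, 2 were in the top 10%, while among the 10915 regions this close to an end of any protein-coding gene 34.8% were. Pooled over the genes, the level at gene ends was 62.5, 63.0 and 63.4 CPM per kb (63.0 ± 0.450), and that of the other 112 regions was 48.6, 55.6 and 54.8 (53.0 ± 3.84). The library values of the 2 sets do not overlap. The log2 ratio was 0.36, 0.18 and 0.21 (0.25 ± 0.10), higher at gene ends in 3 of 3 libraries, with an exact two-sided sign-flip permutation p of 0.25, the smallest that 3 libraries allow. Over all nuclear regions the same ratio was 0.31, 0.51 and 0.29 (0.37 ± 0.12).

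The ratio varied between the genes, and that difference was not tested. At Spi1 the log2 ratio of gene end to other regions was 1.02, 0.68 and 0.42 (0.71 ± 0.30, exact two-sided sign-flip permutation p = 0.25). At Egr1 it was 0.65, -0.52 and 0.56 (0.23 ± 0.65), at Klf4 -0.64, 0.28 and 0.11 (-0.08 ± 0.49) and at Runx1 -0.0026, 0.31 and -1.64 (-0.44 ± 1.05). For Runx1 the gene end is the far end of the gene alone. Its highest region, at the proximal start inside the span, counts among the other regions. Spi1 alone, among the genes with a region at an end, was on the same side in each library, and that rests on a single region. That region lies near an end of the RefSeq span, which need not be the main start of Spi1. The pooled ratio turned to -0.50 in technical replicate 1 alone and to -0.17 on regions of 150 bp or wider, and it was 0.15 without Spi1 and 0.15 without Egr1. With annotated starts also counted as gene ends, an alternative chosen after seeing the data, it was 0.25.

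**Figure D3:**
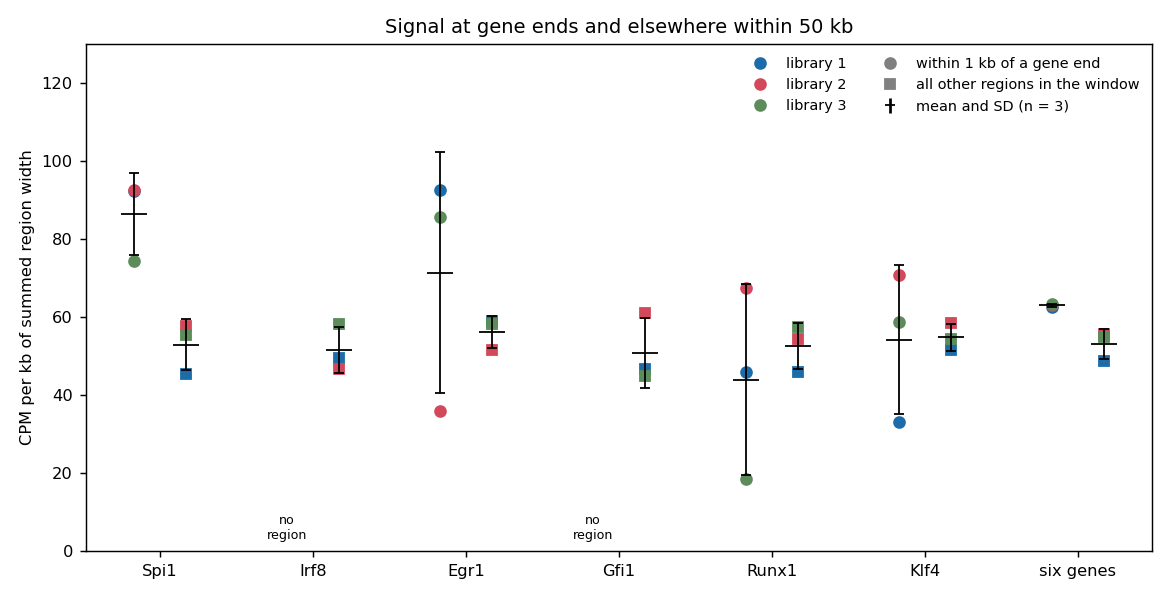
Level in CPM per kb of summed region width (y axis) of gene-end regions (circles, at most 1 kb from an end) and of all other regions within 50 kb (squares), for each gene and for all 6 pooled (x axis). Colours are the 3 libraries and black bars the mean with SD (n = 3); the circles of Egr1, Runx1 and Klf4 spread widely, while the other regions of all the genes lie between 44.7 and 61.0.

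Over all of its regions, Egr1 stood at 58.2 ± 7.61 CPM per kb, Klf4 at 54.7 ± 4.83, Spi1 at 54.6 ± 6.02, Runx1 at 52.4 ± 5.63, Irf8 at 51.5 ± 5.89 and Gfi1 at 50.8 ± 8.93. The level of all regions of the genome was 51.5. Neighbours in this order did not differ beyond their spread, and even the ranges of Egr1 (49.4 to 63.3) and Gfi1 (44.7 to 61.0) overlap.

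Reads followed width closely. Genome-wide, regions of 90 to 100 bp held a median of 26 reads over the 3 libraries, with 22 at the 10th and 32 at the 90th percentile, and those over 400 bp held 127.5. The Runx1 region of 446 bp held 142 reads, and the region of 327 bp held 98 against a median of 83 in its width class. Egr1's region of 155 bp held 82, where the 90th percentile of its class was 49, and Klf4's region of 157 bp held 71. Without division by width, 15 of the 118 regions (12.7%) were in the top 10%, and 6 (5.08%) were there in each of the 3 libraries, where 2.32% of all regions were. Those 6 were the wide pair in Runx1, the Psmc3 and Slc39a13 regions beside Spi1, the Egr1 region at 34856318 and the Klf4 region at 55488624. Of the 33 regions of 150 bp or wider, 14 were in the top 10% without division by width, where 36.8% of all regions that wide were. Ranked among regions of like width, 13 of 118 were in the top 10%.

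**Figure D4:**
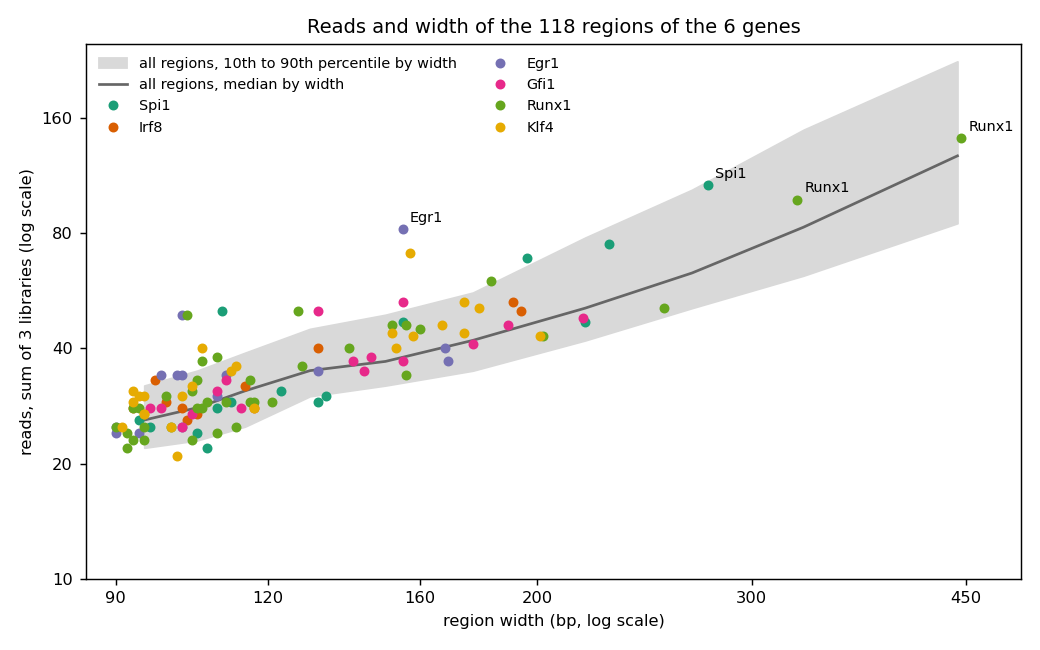
Reads of each of the 118 regions summed over the 3 libraries (y axis, log scale) against region width in bp (x axis, log scale), coloured by gene. The grey band spans the 10th to 90th percentile of all regions in the same width class and the grey line their median; the widest Runx1 region (142 reads) lies near the line, while the Egr1 region with 82 reads lies well above the band.

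Single regions kept little of their order from library to library. Across the 118 regions Pearson's r of log2 CPM was 0.05 between libraries 1 and 2, 0.22 between 1 and 3 and -0.08 between 2 and 3, as a description over regions that share a library and a width range. Over all 151133 regions the same values were 0.0018, -0.022 and -0.014. The regions are named as combined peaks, and the part that the choice of regions had in these values was not tested. Ranked within libraries 1, 2 and 3, 6, 14 and 17 of the regions were in the top 10%.

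No difference between samples passed at these genes. With library as a blocking term, the edgeR quasi-likelihood fit found 0 of 8 testable regions to differ between technical replicates, where it called 0.575% of the 9743 regions that passed its filter on low counts. Of those 8, 0 had an unadjusted p under 0.05, and DESeq2 called 0. The lowest Benjamini-Hochberg adjusted p in edgeR was 0.937, for the Irf8 region 25034 bp before the start, which had a log2 difference of -1.15 ± 0.84 (SE, technical replicate 2 against 1). Between libraries edgeR called 0 of 19 regions tested (0 at an unadjusted p under 0.05, and 0 by DESeq2), where it called 0.0146% of 27452. The other 110 and 99 regions did not pass the filter on low counts. In edgeR without that filter all 118 were tested and 0 were called. Of the 118, 9 had an unadjusted p under 0.05 between technical replicates, where 7932 of all 151133 regions had. Between libraries 3 of the 118 had, and 3733 of all regions. A p that misses the threshold does not show that the samples were alike.

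Other regulators of the lineage were described in the same way. Of 42 further genes, 27 had a region within 1 kb of an end, against 42.4% of all 21887 protein-coding genes, and 11 had one in the top 10%, against 19%. The median of the 27 was 58.6 CPM per kb, against 61.0 over all genes with such a region. Cbfb, the partner subunit of RUNX1, was among the 11 at 88.2 ± 43.5. So were the relatives Runx3 (90.4 ± 15.0), Irf1 (79.0 ± 24.7), Klf6 (76.1 ± 23.4) and Irf4 (70.3 ± 9.69). The relatives Runx2, Irf2, Irf5, Egr2, Klf5 and Spib had no region within 1 kb of an end. Jun stood at 85.6 ± 6.49 and Fos at 68.7 ± 4.68, while Egr3 (62.1 ± 21.3), Klf2 (56.9 ± 34.1) and Gfi1b (46.2 ± 13.2) were below the bound. Also below it were Spic (61.0 ± 21.8), Nab2 (42.2 ± 23.3) and Nab1 (41.9 ± 36.4). Stat3, at 171 ± 14.4, was the only one of the 11 in the top 10% in each library.

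By a distance over 12 values (log2 of 1 plus CPM per kb of window, in 4 bands of distance from the gene end in 3 libraries), the protein-coding genes most alike were Pon2 for Spi1 (0.38), Ngef for Irf8 (0.29), Dda1 for Egr1 (0.59), Kcnh4 for Gfi1 (0.41), Wfdc2 for Runx1 (0.92) and Pkd1 for Klf4 (0.87). The median distance to all other genes was 2.01 to 4.32.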

How the data were processed

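Raw read counts per region were deposited for each of the 6 anti-IKZF2 samples, over 1 common region set. Per the submitters' processing notes the build is mm10 and the tools include Bowtie2 2.3.3.1 and MACS2. How these were run, on which samples, and whether both mates of a pair were counted, is not given in the sources used here. Region starts are printed as deposited, and may count from 0 or 1. Gene spans and promoters came from RefSeq (GRCm38.p6). Members and lists were chosen with earlier results of these data known. The text names all 6 genes, the highest region of each position class, regions in the top 10% in 2 or more libraries and windows around known enhancers. Promoters were to be printed where a region in the top 10% lay within 250 bp of the start; the Klf4 promoter, the Irf8 and Gfi1 regions just under the bound and the other regions and genes given were added after their values were seen. Tests used edgeR 4.0.16 (filterByExpr, TMM, glmQLFTest, Benjamini-Hochberg, adjusted p under 0.05, R 4.3.3), with DESeq2 1.42.0 as an alternative. The edgeR test alone was tested on simulated counts, where most of the smaller changes put in were not called. Other steps used matplotlib 3.10.9, numpy 2.4.6 and pandas 2.3.3 in Python 3.11.15.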

Additional observations from a re-analysis of the deposited data

Results flagged for a closer look

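Levels were checked in the 6 samples (CPM per kb of summed width in each technical replicate) for 24 combinations of gene and position class. In 4 of them 1 sample lay far from the others, where chance alone gives about 1 in 20 for separate combinations and samples of equal spread. In library 1, technical replicate 1, the 3 regions inside the Spi1 span held no read (a level of 0, against 36.2 to 56.9 in the other samples), and the Runx1 gene body stood at 33.3 against 50.7 to 61.1, from 33 reads. In library 2, technical replicate 1, the Klf4 distal regions stood at 88.0 against 50.2 to 55.4, from 64 reads, and all Klf4 regions stood at 79.6 against 46.3 to 58.7. These Klf4 results are not separate, since all regions of the gene include its distal ones. Both samples are technical replicate 1, the shallower one in each library, and the part of depth in these values was not tested.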

How the results depend on the processing

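The number of regions in the top 10% (10 of 118) was 15 without division by width, 16 in technical replicate 1 alone and 13 to 20 when a library was left out, highest without library 1. It was 4 of 33 on regions of 150 bp or wider and 5 of 66 within 20 kb of the genes. The log2 ratio of gene ends to other regions (0.25) turned to -0.50 in technical replicate 1 alone and to -0.17 on regions of 150 bp or wider. It was 0.064 without division by width, 0.088 with gene ends of 5 kb, and, in alternatives chosen after seeing the data, 0.15 without Egr1 and 0.15 without Spi1. The cause was not tested. The count of the 118 regions called between technical replicates or between libraries was 0 under each alternative run: total reads, no filter, DESeq2, a 20 kb window and each library left out. Technical replicates were compared with the library number as a block, and without this replicate block the count was 0 too (46 against 56 over all regions). The control samples, which share library numbers, were not analysed here. The 56 called between technical replicates became 18, 0 and 8 without library 1, 2 and 3, and the 4 called between libraries became 4, 0 and 0. Of 97 levels of single genes under alternatives, 87 moved by less than 1 SD and 10 by more, 6 of them in technical replicate 1 alone. Depth limits single regions, with a median of 9.5 to 14 reads in a library.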
